A study of Mus musculus with 8 samples.

Results

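Transcripts of T cells and natural killer (NK) cells were followed in libraries of macrophages selected from the adipose tissue of obese mice. The 39 genes are a list of lymphocyte markers chosen by name, for T and NK cells carried along with or in contact with the selected macrophages, and all 39 have a row among the 15867 genes of the deposited table. The cells had been selected for the surface protein F4/80 (encoded by Adgre1), and the mice had been fed a high-fat diet over 20 weeks. The 4 control libraries came from mice with the genotype Mirc11fl/fl Mirc22fl/fl Lyz2+/+. The 4 knockout libraries came from Mirc11fl/fl Mirc22fl/fl Lyz2Cre/Cre mice, in which Cre is expressed from both alleles of the lysozyme M gene Lyz2, a gene of myeloid cells, and deletes the loxP-flanked microRNA clusters Mirc11 and Mirc22 there. Both groups thus carried the floxed clusters and the same diet, and no Cre group with intact clusters was analysed here, so the loss of the clusters, Cre and the loss of Lyz2 cannot be told apart. The labels call the libraries biological replicates without stating whether each came from 1 mouse, and the age and sex of the mice are not given in the sources used here.

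T cells recognise peptides through the T cell receptor, whose antigen-binding chains sit in the membrane together with the CD3 chains and CD247, which carry the signal inward. The kinases Lck and Zap70 and the scaffold Lat pass that signal on, CD4 or CD8 binds the presenting molecule, and receptors such as CD28 or CTLA-4 raise or lower the response. NK cells lack this receptor and sense target cells through receptors such as NKp46, and both NK cells and CD8 T cells kill with perforin and granzymes. In obese adipose tissue, T and NK cells are known to accumulate beside macrophages and to exchange signals with them. Most of these genes are not known as macrophage transcripts.

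The promoters of 5 of these genes are shown because the CD3 chains are neighbours on chromosome 9 that varied together between libraries, and because Gzma and Prf1 carried the highest log2 differences of the list. Each is the 250 bases before the RefSeq start (GRCm38.p6), written 5′ to 3′ on the gene's own strand: Cd3g at chr9:44980432-44980681 (minus strand), Cd3d at chr9:44981536-44981785 (plus), Cd3e at chr9:45009612-45009861 (minus), Gzma at chr13:113100982-113101231 (minus) and Prf1 at chr10:61297586-61297835 (plus). Capitals mark matches, on either strand, to 4 short words of factor families known for T and NK cells: AGGAAG (Ets), TGTGGT (Runx), AGGTGT (T-box) and CTTTGA (TCF/LEF).
Cd3g: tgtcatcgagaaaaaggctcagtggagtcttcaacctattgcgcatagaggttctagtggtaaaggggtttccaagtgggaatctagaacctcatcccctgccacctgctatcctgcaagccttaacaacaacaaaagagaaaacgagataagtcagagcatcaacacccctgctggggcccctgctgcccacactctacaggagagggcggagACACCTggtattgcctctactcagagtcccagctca
Cd3d: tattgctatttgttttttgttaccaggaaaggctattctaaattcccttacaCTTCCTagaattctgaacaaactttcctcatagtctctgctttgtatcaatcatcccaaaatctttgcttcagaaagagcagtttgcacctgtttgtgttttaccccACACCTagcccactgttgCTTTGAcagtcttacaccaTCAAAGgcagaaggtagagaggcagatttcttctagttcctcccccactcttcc
Cd3e: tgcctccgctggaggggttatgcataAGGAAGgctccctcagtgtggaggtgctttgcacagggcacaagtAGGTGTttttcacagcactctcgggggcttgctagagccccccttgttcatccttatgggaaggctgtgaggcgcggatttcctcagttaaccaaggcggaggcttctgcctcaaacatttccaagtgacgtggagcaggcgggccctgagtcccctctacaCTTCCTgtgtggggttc
Gzma: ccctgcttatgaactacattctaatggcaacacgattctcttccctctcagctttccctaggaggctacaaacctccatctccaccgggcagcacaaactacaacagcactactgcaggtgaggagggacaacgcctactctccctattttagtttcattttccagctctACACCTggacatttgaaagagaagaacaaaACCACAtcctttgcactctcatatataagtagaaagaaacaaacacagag
Prf1: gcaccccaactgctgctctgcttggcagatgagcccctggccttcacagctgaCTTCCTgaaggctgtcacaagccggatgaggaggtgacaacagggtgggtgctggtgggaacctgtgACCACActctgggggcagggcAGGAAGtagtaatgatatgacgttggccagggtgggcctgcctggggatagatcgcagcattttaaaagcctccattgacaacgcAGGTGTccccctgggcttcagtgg

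By the GENCODE M21 gene bounds, the starts of Cd3g and Cd3d lie 1355 bases apart and are read in opposite directions. The GENCODE start of Cd3e lies 27841 bases from that of Cd3d. The GENCODE starts of Cd3e (45009627) and Prf1 (61297833) differ from the RefSeq starts and lie inside the windows shown. Each of the 5 windows holds 1 T-box word. Ets words occur in the windows of Cd3d, Cd3e and Prf1, Runx words in those of Gzma and Prf1, and both matches to the TCF/LEF word lie in the Cd3d window. Windows were given for 27 of the 39 genes, some with several starts, 36 windows in all. Of these, 47.2% hold the Ets word, against 29.5% of 32851 windows of all genes. The shares for the Runx word are 30.6% against 14.0%, for the T-box word 25.0% against 11.8%, and for the TCF/LEF word 13.9% against 13.8%. These are matches of letters, and no binding was measured.

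Recovered read totals ran from 31789395 to 46621080 per library, and values below are normalized counts, the reads divided by 1 factor per library. Lyz2 lay between 156727 and 204853 in the control libraries and between 174 and 273 in the knockout libraries, which separates the 8 libraries as their labels do. The microRNA clusters themselves were not analysed here. Adgre1 measured 47340 ± 7761 in control and 40553 ± 2504 in knockout libraries (SD, n = 4 each), and its difference did not pass the test (log2 difference -0.21, limma adjusted p = 0.346). In a list of 16 general macrophage markers, led by Ctsb, 5 fell (Csf1r, Cd68, Itgam, Mpeg1 and Msr1), where 2.38% of all genes fell. The summed level of the list lay between 655750 and 788640 in control and between 534590 and 593330 in knockout libraries. That count of 5 was 10 with DESeq2, 3 with quantile normalization, 1 without knockout replicate 1, 2 without control replicate 3, and 2 without knockout replicate 4. It was 0 with the replicate number as a block or without both control replicate 4 and knockout replicate 1. Of all genes, 377 fell in the main fit, and in these settings, in the same order, 891, 331, 142, 112, 163, 7 and 100 fell. In bulk RNA, more cells of a type and more RNA per cell cannot be told apart.

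T and NK transcripts were a small fraction of these libraries. Per kilobase of merged exon, 37 of the 39 genes lay under 1% of the control level of Adgre1, which was 14620 normalized counts per kb. The median gene of the list reached 11.3 per kb in control libraries. Cd3e, the defining CD3 epsilon chain, measured 6.96 ± 2.96 per kb in control and 11.5 ± 4.64 in knockout libraries (SD, n = 4). Il7r, the interleukin-7 receptor alpha chain known from T cells and innate lymphoid cells and reported in some macrophages, was the most abundant at 1094 ± 145 per kb in control libraries, 157 times the level of Cd3e and 7.48% of Adgre1. Thy1 followed at 175 ± 8.64 per kb. From Cd4 (76.2 ± 41.1) and Lat (72.2 ± 10.4) down to Lef1, the lowest at 2.64 ± 1.14, each gene lay within the SD of its neighbour in the order. The T cell receptor constant chain gene Trac measured 42.3 ± 10.98 per kb, and the NK receptor gene Ncr1 measured 7.24 ± 1.56.

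**Figure D1:**
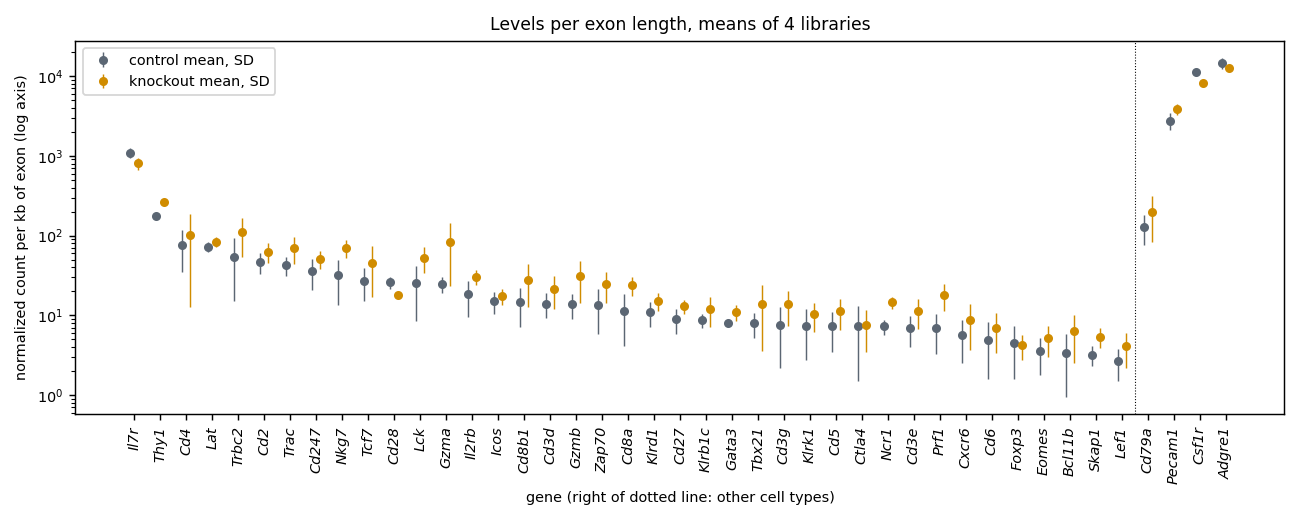
Levels of the 39 T and NK cell genes per kb of merged exon (log axis), as mean and SD of 4 control and 4 knockout libraries, in the order of the control level. To the right of the dotted line stand the B cell gene Cd79a, the endothelial gene Pecam1 and the macrophage genes Csf1r and Adgre1; Il7r and Thy1 lead the list, and Lef1 is lowest.

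Most of the 39 genes had higher means in knockout libraries, but in most the groups overlapped, and 1 passed the adjusted threshold by limma. The log2 difference (knockout minus control of log2(normalized count + 1)) was above 0 in 37 of 39 genes, against 50.5% of all genes tested, with a median of 0.58 against 0.00 for all genes. With limma and Benjamini-Hochberg adjustment over 15862 genes, 1 gene rose (Thy1), 0 fell and 38 did not pass, where 3.61% of all genes passed (1.24% higher, 2.38% lower). At an unadjusted p under 0.05, 12 of the 39 were higher and 2 lower, against 21.2% of all genes, 10.8% higher and 10.4% lower. The groups did not overlap in 7 genes, 5 higher and 2 lower, against 13.7% of all genes (5.52% higher, 8.21% lower): Thy1, Gzma, Gzmb, Prf1 and Ncr1 were higher in every knockout library than in any control library, and Cd28 and Il7r lower. DESeq2 called 5 genes (Thy1, Gzma and Prf1 higher, Cd28 and Il7r lower, 7 without an adjusted p), where it called 10.9% of all genes (4.66% higher, 6.23% lower). The authors' deposited table is DESeq2 on the same libraries, so it is not a second test. It has 3 of the 39 genes higher and 2 lower, against 10.9% of all genes (4.65% higher, 6.23% lower). The edgeR test called Thy1 alone, where 3.51% of all genes passed, 1.2% being higher. With limma array weights, which give less weight to libraries that deviate, 5 of the 39 passed (5.87% of all genes), and with the replicate number as a block 0 passed (0.0441% of all genes).

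**Figure D2:**
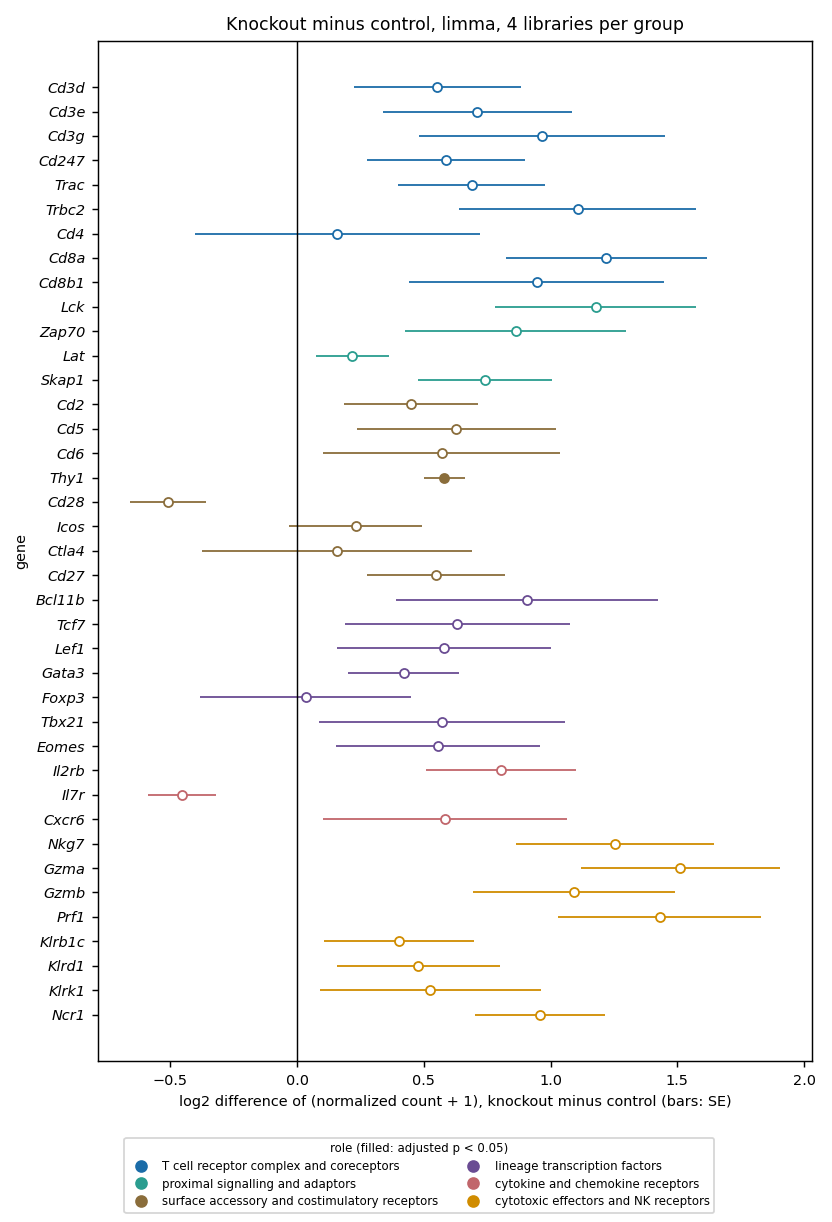
Log2 difference, knockout minus control, of each of the 39 genes with its standard error from limma (4 libraries per group), coloured by role. Of the points, 37 lie right of 0; the filled point, Thy1, is the gene that passed the adjusted threshold, and Cd28 and Il7r lie left of 0.

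The libraries within a group differed from each other in a pattern that ran through most of the list. Control replicate 4 was the highest control library in 31 of the 39 genes, and knockout replicate 1 the highest knockout library in 25. Knockout replicate 4 was the lowest knockout library in 20. The summed level of 9 T cell markers (Cd3d, Cd3e, Cd3g, Trac, Trbc2, Lck, Cd5, Cd6 and Bcl11b; Cd247 and Lat were left out after their values were seen) was 239, 227, 257 and 606 in control replicates 1 through 4 and 946, 567, 459 and 379 in knockout replicates 1 through 4. Control replicate 4 thus lay above 3 of the 4 knockout libraries, and the groups overlapped. The same 2 libraries were highest in B cell transcripts: over 16 B cell markers, with Ighm the most abundant, control replicate 4 led its group in 15 and knockout replicate 1 in 16, with summed levels of 13711, 11629, 14212 and 23797 in control and 34033, 16388, 14549 and 16061 in knockout libraries. All 16 B cell markers had a log2 difference above 0 (median 0.51) and 0 passed the adjusted threshold by limma or edgeR. At an unadjusted p under 0.05, 2 were higher, against 10.8% of all genes. Whether a carry-over of lymphocytes of several kinds contributed to the T and NK values was not tested.

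**Figure D3:**
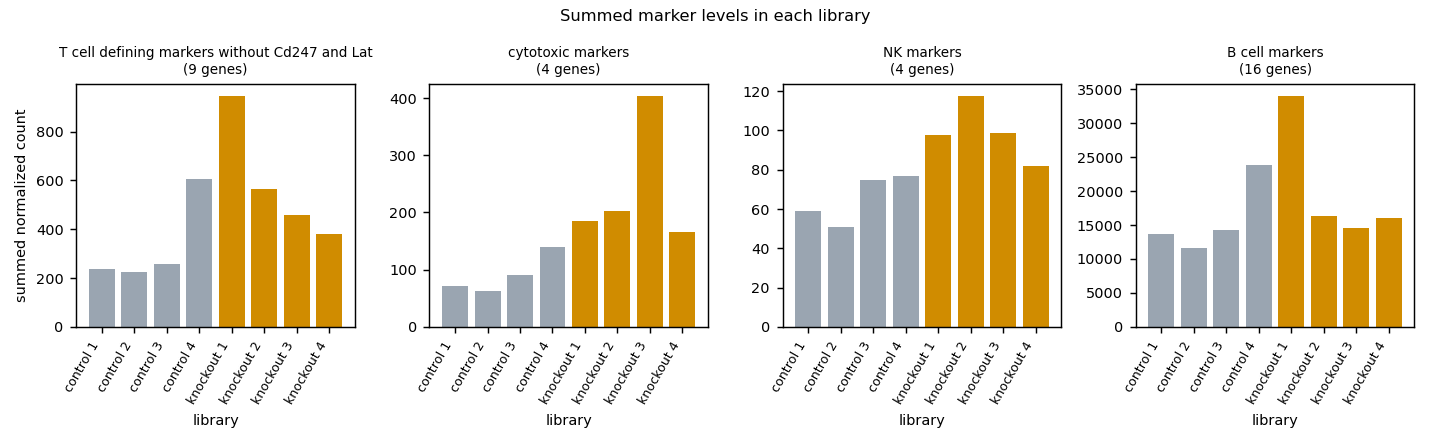
Summed normalized counts in each library of 9 T cell markers, 4 cytotoxic markers (Nkg7, Gzma, Gzmb and Prf1), 4 NK markers (Ncr1, Klrb1c, Klrd1 and Eomes) and 16 B cell markers, with control libraries in grey and knockout libraries in orange. Control replicate 4 and knockout replicate 1 are the highest of their groups in the T and B cell panels, whereas knockout replicate 3 leads the cytotoxic panel.

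Without control replicate 4, an alternative of the same test, 4 of the 39 genes passed (Cd8a, Il2rb, Lck and Thy1, all higher), against 2.04% of all genes, and 18 did not overlap between groups, 16 higher and 2 lower, against 17.9% of all genes (7.89% higher, 9.97% lower). The median log2 difference was then 0.88, and 0.48 without knockout replicate 1. Control replicate 4 was the highest control library in 31 of the 39 genes, and knockout replicate 4 the lowest knockout library in 20. Leaving out either library therefore raises the differences of those genes by construction. Fewer libraries can also only keep or raise the number of genes without overlap. In every other fit that left out 1 library, Thy1 was the only gene of the list called. Without knockout replicate 4, 11 genes did not overlap, 9 higher and 2 lower, against 19.1% of all genes (8.17% higher, 10.9% lower). With control replicate 4 and knockout replicate 1 both left out, Lck was called (adjusted p = 0.0487) and Thy1 was not (0.0551), where 0.958% of all genes passed. In that setting 19 genes did not overlap between groups, 17 higher and 2 lower, against 21.4% of all genes (9.53% higher, 11.8% lower), and the median log2 difference was 0.67.

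In the T cell receptor complex and its coreceptors, all 9 genes had higher means in knockout libraries and none passed the test, by limma, edgeR or DESeq2. At an unadjusted p under 0.05, 3 were higher, against 10.8% of all genes, and the median log2 difference was 0.71. Knockout replicate 1 was the highest knockout library in 9 of 9 and control replicate 4 the highest control library in 8 of 9. Cd3e measured 15.6, 23.4, 30.7 and 43.9 in control replicates 1 through 4 and 72.1, 48.4, 39.3 and 27.3 in knockout replicates 1 through 4. The ranges overlapped, with knockout replicate 4 below control replicates 3 and 4. The log2 difference of Cd3e was 0.71 (SE 0.37, limma adjusted p = 0.314). Cd3g, the gamma chain, measured 9.82, 20.3, 18.2 and 49.9 in control and 72.9, 45.1, 37.2 and 24.3 in knockout libraries (0.97, SE 0.49, adjusted p = 0.293). Cd3d, the delta chain, measured 21.3, 24.4, 18.2 and 37.9 in control and 64.2, 26.4, 32.9 and 31.4 in knockout libraries (0.55, SE 0.33, adjusted p = 0.374). In all 3 chains, control replicate 4 lay among the knockout values, and the normalized counts stand for 12 to 83 reads.

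Trac, the constant region of the receptor alpha chain, measured 43.4, 34.6, 28.4 and 51.9 in control and 100.2, 62.6, 59.5 and 41.5 in knockout libraries. Knockout replicate 4 fell among the control values, and the log2 difference was 0.69 (SE 0.29, limma adjusted p = 0.218). Trbc2, a constant region of the beta chain, measured 26.2, 17.3, 29.6 and 77.9 in control and 133, 65.9, 58.5 and 47.5 in knockout libraries (1.11, SE 0.47, adjusted p = 0.218). Its transcript shares 48.5% of its 31-base words with Trbc1, the other beta constant region, so the split of reads between them is uncertain; Trbc1 had a log2 difference of 1.33 (adjusted p = 0.148). Cd247, the zeta chain, measured 97.4, 289, 167 and 206 in control and 373, 213, 233 and 269 in knockout libraries (0.59, SE 0.31, adjusted p = 0.319). It stood out from the other chains in that control replicate 2 was its highest control library. Cd247 shares 54.4% of its words with Pou2f1 on the opposite strand, and no source used here states whether reads were counted by strand, so its level is uncertain.

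The coreceptors differed from each other in size. Cd8a, the CD8 alpha chain, measured 26.2, 20.3, 39.8 and 77.9 in control and 113, 81.3, 96.7 and 58.7 in knockout libraries. All knockout libraries lay above control replicates 1 to 3, and knockout replicate 4 below control replicate 4. The log2 difference was 1.22 (SE 0.40, limma adjusted p = 0.127), and it passed without control replicate 4 (adjusted p = 0.0418, with a range of 0.0418 to 0.331 over all alternatives). Cd8b1, the CD8 beta chain, measured 22.9, 7.11, 22.7 and 33.9 in control and 73.8, 29.7, 40.4 and 22.3 in knockout libraries (0.94, SE 0.50, adjusted p = 0.319). Cd4 had the largest standard error of the list, with 214, 292, 177 and 545 in control and 914, 363, 193 and 147 in knockout libraries. All 4 control libraries lay within the range of the knockout libraries, and its log2 difference of 0.16 (SE 0.56, adjusted p = 0.905) turned to -0.36 without knockout replicate 1.

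**Figure D4:**
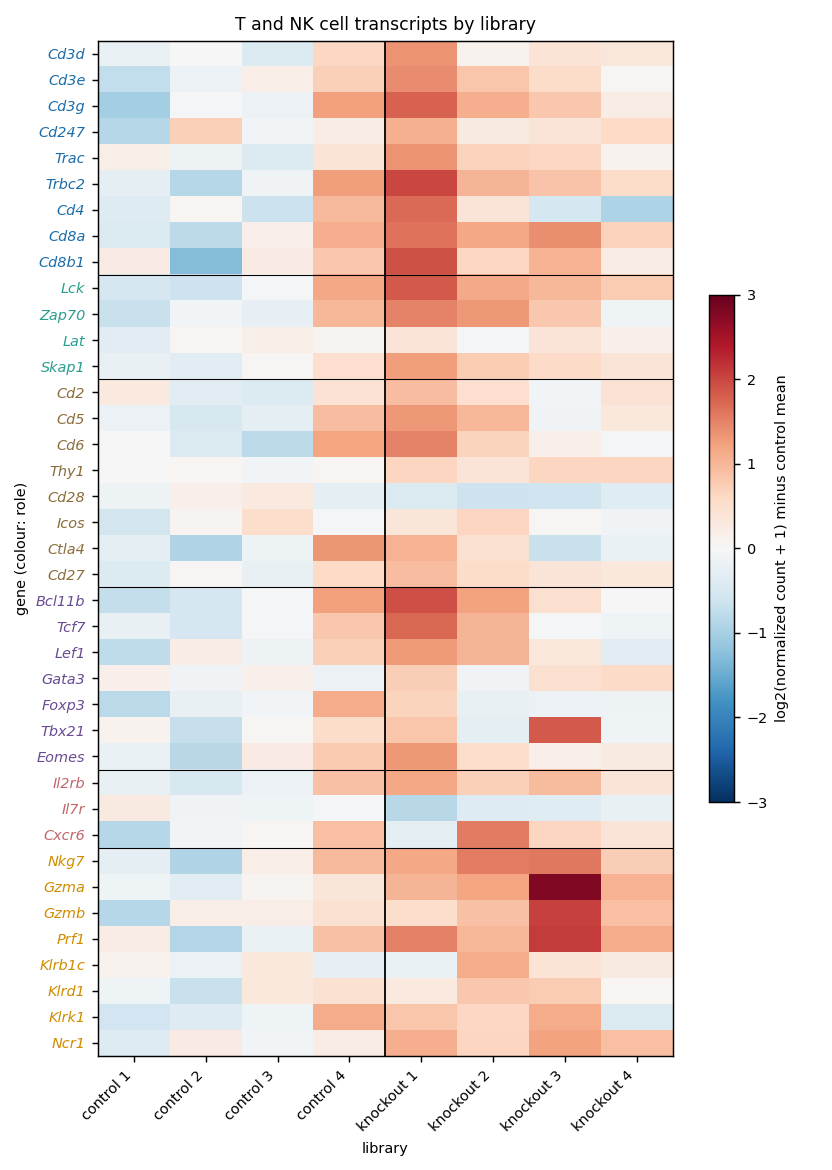
Log2(normalized count + 1) of each of the 39 genes in each of the 8 libraries, less the mean of the 4 control libraries, with genes grouped by role (label colours as in the plot of log2 differences). Control replicate 4 and knockout replicate 1 stand out as the reddest columns of their groups over most T cell genes, and knockout replicate 3 in Gzma, Gzmb and Prf1.

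Among the proximal signalling genes, control replicate 4 and knockout replicate 1 were the highest of their groups in 3 of 4, Lat being the exception with replicate 3 in both. Lck, the kinase that starts receptor signalling, measured 45.02, 41.7, 62.5 and 146 in control and 232, 142, 130 and 109 in knockout libraries. Control replicate 4 again lay above 3 of the 4 knockout libraries, and the log2 difference was 1.18 (SE 0.40, limma adjusted p = 0.138). Without control replicate 4 it was 1.57 (adjusted p = 0.0336, with a range of 0.0336 to 0.347 over all alternatives). Zap70, the kinase recruited to the phosphorylated receptor, measured 22.9, 34.6, 30.7 and 74.9 in control and 105, 92.3, 64.8 and 33.4 in knockout libraries (0.86, SE 0.44, adjusted p = 0.296). Skap1, an adaptor that links the receptor to integrin adhesion, ranged from 18.3 to 32.9 in control and from 30.3 to 56.2 in knockout libraries (0.74, SE 0.27, adjusted p = 0.161). Lat, the membrane scaffold, differed least, with 158, 206, 224 and 211 in control and 257, 195, 258 and 219 in knockout libraries (0.22, SE 0.14, adjusted p = 0.424). None of these 4 genes passed by limma, edgeR or DESeq2, and 2 were higher at an unadjusted p under 0.05, against 10.8% of all genes.

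Thy1, a surface glycoprotein of mouse T cells that fibroblasts and other stromal cells also carry, was the gene that rose. It lies at chr9:44043384-44048579 (mm10, plus strand). It measured 514, 543, 490 and 544 in control and 823, 684, 818 and 811 in knockout libraries. Every knockout library was above every control library, and control replicate 4 did not stand apart from the other controls. The mean went from 523 ± 25.9 to 784 ± 67.3 (SD, n = 4 each; log2 difference 0.58, SE 0.08, limma adjusted p = 0.00824). The call held in 8 of 8 fits that left out 1 library (adjusted p = 0.00905 to 0.0365), and ended without both control replicate 4 and knockout replicate 1 (0.0551) and with the replicate block (0.149). In the authors' deposited table, from DESeq2 on the same libraries, Thy1 has an adjusted p of 5.04e-08. Over 16 fibroblast and preadipocyte markers, led by Col3a1, the summed level lay between 171320 and 265520 in control and between 235590 and 315750 in knockout libraries; 1 of the 16 rose, Ly6a (0.52, adjusted p = 0.0168; 0 of the 16 rose without control replicate 3, with the replicate block, or without both control replicate 4 and knockout replicate 1, and 5 with DESeq2), and 8 were higher at an unadjusted p under 0.05. Of all genes, 1.24% rose by limma, 4.66% by DESeq2, and 10.8% were higher at an unadjusted p under 0.05. The genes that rose by limma, 196 in the main fit, were 51 without control replicate 3 and 0 with the replicate block. They were 52 without both control replicate 4 and knockout replicate 1. The part of stromal cells in the Thy1 difference was not tested.

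The other surface receptors did not pass the test. Cd28, the main costimulatory receptor of T cells, measured 139, 173, 190 and 130 in control and 115, 101, 102 and 120 in knockout libraries. All knockout libraries were below all control libraries, and control replicate 4, high in most T cell genes, was here the lowest control library. The log2 difference of Cd28 was -0.51 (SE 0.15, limma adjusted p = 0.0987, with a range of 0.0324 to 0.333 over all alternatives). Cd28 is at chr1:60716800-60773359 (plus strand). Cd5 and Cd6, related scavenger-type receptors that tune T cell signalling, followed the pattern of the CD3 chains. Cd5 measured 29.5, 23.4, 27.3 and 63.9 in control and 83.5, 67.0, 30.8 and 41.5 in knockout libraries (0.63, adjusted p = 0.402). Cd6 ranged from 19.3 to 78.9 in control and from 33.4 to 96.7 in knockout libraries (0.57, adjusted p = 0.527). Cd2, an adhesion receptor of T and NK cells, ranged from 58.0 to 105 and from 73.3 to 149 (0.45, adjusted p = 0.371). Cd27, a costimulatory receptor of the tumour necrosis factor receptor family, ranged from 14.7 to 30.9 and from 25.3 to 38.7 (0.55, adjusted p = 0.288).

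Icos and Ctla4, the costimulatory and inhibitory relatives of Cd28, showed no direction that held over the alternatives. Icos measured 33.6, 52.9, 72.7 and 47.9 in control and 64.2, 78.0, 51.0 and 46.5 in knockout libraries (0.23, limma adjusted p = 0.659). Ctla4, also a marker of regulatory T cells, measured 11.5, 7.11, 12.5 and 36.9 in control and 29.9, 19.8, 8.50 and 12.1 in knockout libraries (0.16, adjusted p = 0.900), with the largest relative spread of the list in control libraries (SD of 79.4% of the mean). The median of that spread over the 39 genes was 43.1%, and it exceeded the counting error in 36 of them.

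Among 7 lineage transcription factors, all had a log2 difference above 0 and none passed by limma, edgeR or DESeq2, which gave 2 no adjusted p. An unadjusted p under 0.05 was found in 0 of them, against 21.2% of all genes. Bcl11b, which commits precursors to the T cell lineage, measured 13.9, 16.3, 22.7 and 55.9 in control and 92.3, 54.9, 32.9 and 23.3 in knockout libraries (0.91, SE 0.52, limma adjusted p = 0.353). Tcf7, which encodes TCF-1 and marks naive and memory T cells, measured 56.5, 46.8, 63.7 and 117 in control and 221, 135, 63.8 and 60.7 in knockout libraries (0.63, adjusted p = 0.457). In both genes control replicate 4 exceeded knockout replicates 3 and 4. Lef1, its relative, ranged from 12.3 to 35.9 and from 17.2 to 53.6 (0.58, adjusted p = 0.474), and Gata3, the factor of type 2 helper and innate lymphoid cells, from 27.95 to 35.2 and from 29.7 to 53.6 (0.42, adjusted p = 0.312).

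Foxp3, the factor that defines regulatory T cells, had the log2 difference nearest to 0. It measured 9.82, 15.2, 17.1 and 39.9 in control and 29.0, 15.4, 15.9 and 16.2 in knockout libraries (0.03, SE 0.42, limma adjusted p = 0.974). Control replicate 4 was its highest library of all 8. Foxp3 overlaps other genes on both strands. It shares 26.4% of its words with transcripts of any other gene, and 16.2% with Flicr, which it overlaps, so its level is uncertain. Tbx21, the T-bet factor of type 1 T cells and NK cells, measured 20.5, 11.2, 19.3 and 27.95 in control and 34.3, 15.4, 70.1 and 17.2 in knockout libraries (0.57, adjusted p = 0.544). Without knockout replicate 3, its highest library, the difference was 0.15. Eomes, its relative in NK and memory CD8 cells, ranged from 7.11 to 24.0 in control and from 14.9 to 34.3 in knockout libraries (0.56, adjusted p = 0.471).

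The cytokine and chemokine receptors went in both directions. Il7r measured 6094, 4745, 4630 and 4938 in control and 2841, 3899, 3916 and 4329 in knockout libraries. All knockout libraries were below all control libraries, and knockout replicate 1, the highest in T cell markers, was here the lowest. The mean went from 5102 ± 674 to 3746 ± 635 (SD, n = 4; -0.45, SE 0.14, limma adjusted p = 0.106, with a range of 0.0224 to 0.332 over all alternatives). Il7r is at chr15:9505788-9530176 (minus strand). Il2rb, the beta chain of the interleukin-2 and interleukin-15 receptors carried by NK and CD8 T cells, measured 62.2, 51.8, 64.8 and 134 in control and 164, 121, 140.3 and 96.1 in knockout libraries (0.81, SE 0.30, adjusted p = 0.170). Knockout replicates 2 and 4 lay below control replicate 4, and without that library the adjusted p was 0.0409 (0.0409 to 0.381 over all alternatives). Cxcr6, a chemokine receptor of tissue-resident T and NK cells, measured 4.91, 9.15, 10.2 and 19.0 in control and 7.91, 30.8, 15.9 and 13.2 in knockout libraries (0.58, adjusted p = 0.530).

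The cytotoxic effectors and NK receptors had the highest median log2 difference of the roles, led by Gzma, Prf1 and Nkg7. All 8 were above 0 with a median of 1.02, and none passed after adjustment by limma or edgeR. At an unadjusted p under 0.05, 5 were higher, against 10.8% of all genes. Gzma, the protease granzyme A, measured 22.1, 19.3, 26.1 and 31.9 in control and 51.0, 57.1, 173 and 51.6 in knockout libraries. Every knockout library exceeded every control library, and knockout replicate 3 stood far above the other three. The log2 difference of Gzma was 1.51 (SE 0.39, limma adjusted p = 0.0743, with a range of 0.00479 to 0.205 over all alternatives), and 1.09 without knockout replicate 3. Prf1, which encodes the pore-forming perforin, measured 18.8, 8.13, 13.6 and 29.9 in control and 47.5, 33.0, 71.2 and 35.4 in knockout libraries. Its groups did not overlap, and the difference was 1.43 (SE 0.40, adjusted p = 0.0881, with a range of 0.0279 to 0.238 over all alternatives). DESeq2 called Gzma and Prf1. The authors' deposited table, also DESeq2 on these libraries and so not a second test, gives them adjusted p of 0.00479 and 0.0279. Gzma is at chr13:113093825-113100981 (minus strand) and Prf1 at chr10:61297833-61304680 (plus strand).

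Gzmb, granzyme B, measured 9.82, 21.3, 21.6 and 26.0 in control and 27.2, 35.2, 80.8 and 35.4 in knockout libraries. Here too the groups did not overlap and knockout replicate 3 was the highest (1.09, SE 0.40, limma adjusted p = 0.167). Nkg7, a granule membrane protein of cytotoxic cells, measured 21.3, 13.2, 29.6 and 51.9 in control and 58.9, 76.9, 78.7 and 43.5 in knockout libraries (1.25, SE 0.39, adjusted p = 0.115). Knockout replicate 4 lay below control replicate 4. The summed level of Nkg7, Gzma, Gzmb and Prf1 was 72.0, 62.0, 90.9 and 140 in control and 185, 202, 404 and 166 in knockout libraries, a ratio of means of 2.62, and the groups did not overlap. For the 9 T cell markers the ratio of means was 1.77, and 1.51 with Cd247 and Lat included (11 genes). In the cytotoxic sum control replicate 4 was again the highest control library, as in the B cell sum, whereas knockout replicate 3, the highest knockout library, was the lowest knockout library in the B cell sum.

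Ncr1, which encodes the NK cell receptor NKp46, measured 8.19, 13.2, 10.2 and 13.0 in control and 24.6, 17.6, 26.6 and 21.2 in knockout libraries. The groups did not overlap, and the log2 difference was 0.96 (SE 0.26, limma adjusted p = 0.0805, with a range of 0.0403 to 0.299 over all alternatives). Klrb1c, the NK1.1 receptor, measured 27.0, 22.4, 31.8 and 20.96 in control and 22.0, 56.0, 34.0 and 30.3 in knockout libraries (0.40, adjusted p = 0.477). It shares 13.1% of its words with Gm44511, which it overlaps, and 21.2% with transcripts of any other gene. Klrd1, the CD94 chain that pairs with NKG2 receptors, ranged from 8.13 to 19.0 and from 14.2 to 24.2 (0.48, adjusted p = 0.436). Klrk1, the activating receptor NKG2D of NK and CD8 T cells, measured 31.1, 35.6, 43.2 and 103 in control and 84.4, 72.5, 103 and 34.4 in knockout libraries (0.53, adjusted p = 0.533). The summed level of Ncr1, Klrb1c, Klrd1 and Eomes was 58.9, 50.8, 75.0 and 76.9 in control and 97.5, 118, 98.8 and 81.9 in knockout libraries, again without overlap, and the ratio of means was 1.51. This separation depends on the genes summed. Over all 8 cytotoxic effector and NK receptor genes, Klrk1 included, the sum lay between 141 and 295 in control libraries. In knockout libraries it lay between 266 and 591, and the groups overlapped. Values in this group stand on 8 to 163 reads per library.

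**Figure D5:**
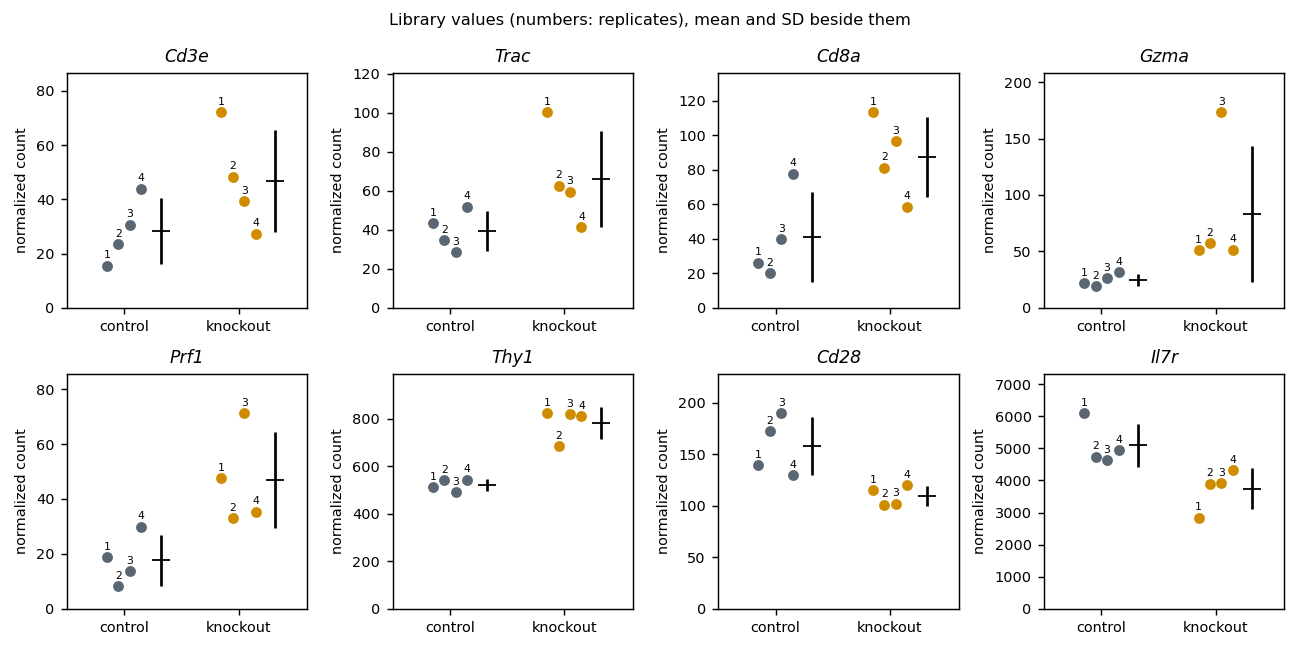
Normalized counts of 8 genes in each library (points numbered by replicate), with the mean and SD of each group of 4 beside them. Cd3e, Trac and Cd8a overlap between groups, Gzma, Prf1 and Thy1 are higher in every knockout library, and Cd28 and Il7r lower.

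Further genes of these pathways, 96 of 123 listed having been tested, gave 2 that rose and 6 that fell. Of all genes, 1.24% rose and 2.38% fell. Among 28 further T cell signalling genes, 0 rose and 3 fell: Rhoh, a GTPase of blood cells needed for receptor signalling (log2 difference -0.42, limma adjusted p = 0.0368), Ptprc, the leukocyte phosphatase CD45 (-0.41, 0.0432), and Coro1a, an actin regulator of leukocytes (-0.46, 0.0386). Macrophages also express Ptprc and Coro1a, and Ptprc was the most abundant gene of that list. In control libraries Rhoh measured 860 ± 97.8, against 73.7 ± 48.9 for Lck (SD, n = 4). Which cells carried the Rhoh transcripts was not tested. Leaving out 1 library ended the calls of Rhoh, Ptprc and Coro1a in 7, 7 and 8 of 8 fits. Among 21 helper, regulatory and exhaustion genes, Havcr2 fell and the others did not pass. Havcr2 encodes TIM-3, an inhibitory receptor of T cells that myeloid cells carry too, and it measured 715, 608, 552 and 590.0 in control and 294, 387, 377 and 400 in knockout libraries (-0.76, adjusted p = 0.0146). S1pr1, a lymphocyte exit receptor that endothelium also carries, was the most abundant of these genes, at 6728 ± 549 in control and 8096 ± 489 in knockout libraries (SD, n = 4; 0.27, adjusted p = 0.0781).

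Among 20 further NK and cytotoxic genes, Il18rap rose and 0 fell by limma. DESeq2 gave 9 of the 20 no adjusted p. It called 3 higher (Il18rap, Il18r1 and Serpinb9) and 1 lower, against 4.66% and 6.23% of all genes that had one. The lower gene was Il12rb2, whose groups did not overlap (log2 difference -0.81, limma adjusted p = 0.107, DESeq2 adjusted p = 0.0492). Il18rap, the accessory chain of the interleukin-18 receptor on NK and activated T cells, measured 41.7, 44.7, 33.0 and 44.9 in control and 74.7, 101, 107 and 86.0 in knockout libraries. The groups did not overlap, control replicate 4 did not stand apart, and the log2 difference was 1.14 (SE 0.18, limma adjusted p = 0.0138; called in 8 of 8 fits that left out 1 library). Serpinb9, the inhibitor that shields cells from granzyme B, was the most abundant of this list, with 1461 ± 168 in control and 1829 ± 149 in knockout libraries (SD, n = 4; 0.33, adjusted p = 0.0936).

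Of 29 macrophage genes that act on T and NK cells, 1 rose and 2 fell. Clec2i, a C-type lectin-related ligand of NK receptors, measured 76.9, 87.4, 145 and 94.8 in control and 334, 309, 281 and 208 in knockout libraries (1.496, SE 0.22, limma adjusted p = 0.0110). Vsig4, a complement receptor of resident macrophages that restrains T cells, measured 1071, 1064, 1151 and 1690 in control and 615, 731, 596 and 555 in knockout libraries (-0.97, SE 0.15, adjusted p = 0.0148). Vsir, the inhibitory ligand VISTA, went from 22057 ± 1116 to 15284 ± 1636 (SD, n = 4; -0.53, SE 0.08, adjusted p = 0.0138). In these 3 genes the groups did not overlap, and each call held in 8 of 8 fits that left out 1 library. Without both control replicate 4 and knockout replicate 1, the calls of Clec2i and Vsir ended and that of Vsig4 held. Over all 4 lists of further genes, the calls of Il18rap, Havcr2 and Vsig4 held in that setting, the other 5 ended, and 0 of the 8 held with the replicate block. Of all genes, 0.958% passed in that setting and 0.0441% with the block. H2-D1, a classical class I presenting molecule, was the most abundant of the list, at 117216 ± 33282 and 104779 ± 16232 (-0.14, adjusted p = 0.740).

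Transcripts of other cell types were measured beside the T and NK genes. Of all genes, 1.24% rose and 2.38% fell by limma. At an unadjusted p under 0.05, 10.8% of all genes were higher and 10.4% lower. DESeq2 called 4.66% of all genes higher and 6.23% lower. Over 16 endothelial and mural markers, of which Vwf was the most abundant, the summed level lay between 110810 and 193420 in control and between 186800 and 252700 in knockout libraries, and 0 passed the adjusted threshold by limma or edgeR, with 10 higher at an unadjusted p under 0.05 and 4 called by DESeq2. Over 5 erythroid markers, led by Hbb-bs, it lay between 1685 and 3493 in control and between 2512 and 6102 in knockout libraries, with 0 past the threshold by limma or edgeR, 4 higher at an unadjusted p under 0.05 and 3 called by DESeq2. Over 13 mast cell and eosinophil markers, led by Tpsb2, it lay between 1641 and 3794 and between 2877 and 5019, where 1 rose (Siglecf) and 1 fell (Ccr3). The higher call ended in 6 of 8 fits that left out 1 library (those without control replicate 1 or 3 or any 1 knockout library). Both calls ended without control replicate 3, with the replicate block, and without both control replicate 4 and knockout replicate 1. Over 15 dendritic cell markers, led by Irf8, it lay between 20074 and 24321 and between 19932 and 23244, with 0 past the threshold by limma or edgeR, and 4 higher and 2 lower at an unadjusted p under 0.05. Over 7 neutrophil markers, led by Csf3r, it lay between 1268 and 2134 and between 1494 and 2722, and over 13 adipocyte markers, led by Fabp4, between 60899 and 82744 and between 72773 and 111530. No gene of either list passed by limma or edgeR, with 1 and 3 higher at an unadjusted p under 0.05. The part of these cells, or of the lower macrophage sum, in the T and NK values was not tested.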

How the data were processed

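Poly(A)-selected RNA of F4/80-positive adipose tissue macrophages was sequenced, per the labels' protocols. FastQC, cutadapt, Salmon, DESeq2 and the build mm10 are named, without versions, in the submitters' processing notes. The authors deposited normalized counts, a signal that is never negative: within 0.01 reads, 100% of the values are whole reads divided by 1 factor per library. The step of control replicate 4 lies near 1. The smallest value of each column is 1 read, and no source used here says whether 1 read was added. The authors' deposited table holds, per the file headers, mean signal, log2 fold changes (control over knockout), standard errors and test statistics (a score) and p-values, with 1558 adjusted p missing.

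The test was limma 3.58.1 (R 4.3.3) on log2(value + 1), eBayes with trend, two-sided, with Benjamini-Hochberg adjustment over 15862 genes with a mean of at least 10, at a threshold of 0.05 and with no covariate; all 39 genes passed that filter, in control libraries too. On this scale the change of a low gene is understated. Count models (edgeR 4.0.16, DESeq2 1.42.0) were alternatives on recovered reads. Differences are tested over libraries, whose spread may be technical. The members, their roles and the pathway and marker lists were chosen with earlier results of these data known. Named are all members, pathway genes past the threshold, and the most abundant gene of each pathway and marker list; other genes were chosen after their values were seen. Positions and merged exon lengths came from GENCODE M21 (mm10), and shared 31-base words from its transcripts. Libraries of a group differed beyond counting noise (chi-square per gene at least 8.86) and were kept as separate replicates. Protein sequences were not used here.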

Additional observations from a re-analysis of the deposited data

Results flagged for a closer look

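In each group of 4 libraries, the gap of the highest or lowest value to its nearest neighbour was compared with the group's range. Of 78 groups (39 genes in control and in knockout libraries), 7 held a library that stood apart, where chance gives about 1 in 20. Control replicate 4 stood apart in 3 genes: Cd5 at 63.9 (nearest 29.5), Il2rb at 134 (nearest 64.8) and Klrk1 at 103 (nearest 43.2). Knockout replicate 3 stood apart in both granzymes, Gzma at 173 (nearest 57.1) and Gzmb at 80.8 (nearest 35.4). Foxp3 was high in knockout replicate 1, at 29.0 (nearest 16.2). Thy1 was low in knockout replicate 2, at 684 (nearest 811), which is still above all control libraries. The cause of these values was not tested.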

How the results depend on the processing

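Of 751 refits of the 39 members, 725 kept their direction and side of the threshold, 12 passed it newly, 2 lost it and 12 reversed. As 38 members did not pass in the main fit, only Thy1 had a call to lose. The 8 called pathway genes are not among these refits. Both losses were of Thy1 (adjusted p = 0.149 with a replicate block, 0.0551 without the 2 libraries highest in B cell markers, a setting added after seeing the data). The count of members past the threshold was 5 with DESeq2, 5 with limma array weights (Cd28, Gzma, Ncr1, Prf1 and Thy1), 0 with a replicate block and 1 to 4 when leaving out 1 library. The count of pathway genes past it, 8 in all, was 13 with DESeq2 (18 without an adjusted p) and 0 with the block. It was 3 without the 2 libraries highest in B cell markers and 5 to 7 when leaving out 1 library. Calls over all genes moved too: 573 in the main fit, 1557 with DESeq2 and 931 with array weights. They were 7 with the block, 152 without these 2 libraries and 163 to 502 when leaving out 1. The count of members whose groups did not overlap was 19 without these 2 libraries, against 21.4% of all genes. It was 7 to 18 when leaving out 1, against 17.9% of all genes in the fit that gave 18. Reversed log2 differences were those of Cd4 (-0.036 without these 2 libraries; -0.36 to 0.52 when leaving out 1), Icos (-0.075 with array weights), Ctla4 (-0.14 to 0.60 when leaving out 1) and Foxp3 (-0.0058 with quantile normalization, -0.083 with edgeR, -0.0074 with array weights; -0.24 to 0.40 when leaving out 1). The causes were not tested. Same-numbered libraries did not deviate together (r of -0.20, -0.20, -0.04 and -0.29). The labels do not state what the numbers stand for, and these correlations cannot show whether a number marks a shared batch. With the replicate block, 7 of all genes passed instead of 573. No control library correlated best with its own number. Scaling each library to the same total called 489 genes, 50.1% of them higher, against 34.2% as deposited, with a median of all genes of 0.06; Thy1 was the member called.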
